A study of Mus musculus with 7 samples.

Results

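The cells described here were monocytes and macrophages of the mouse heart, compared between the steady state and day 1 after myocardial infarction. They were chosen barcode by barcode from unnormalised counts of unique molecular identifiers (UMIs, each standing for 1 captured RNA molecule). A barcode entered if it had 200 genes or more, no more than 10% of UMIs from mitochondrial genes, at least 2 UMIs summed over the macrophage genes Csf1r, Adgre1 and Cd68, no UMI of the neutrophil gene Csf3r, under 3 of the B cell gene Cd79a and none of the T cell genes Cd3d, Cd3e and Cd3g. The rule held for 470 of 683 barcodes in steady state and 183 of 552 on day 1, which made 653 of 1235 barcodes of both libraries, out of 10804 barcodes in 6 of the 7 libraries of the series.

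Both libraries came from male C57BL6/J mice, 5 mice pooled per time point, with no age given in the labels used here. The day 1 hearts had been infarcted by a ligature, and for steady state a like part of the left ventricle was taken from hearts without infarct, although the condition label reads myocardial infarction for every library. The tissue held the infarct, its border and the viable muscle next to it. It was digested with collagenases and hyaluronidase for 1 h at warm temperature, circulating leukocytes had been marked by intravenous anti-CD45.2, neutrophil numbers were lowered before the sort, and viable CD45+ cells without the intravenous label were loaded on 10x Genomics 3′ version 2 chemistry. Libraries of days 3 and 5 (5 mice each) and day 7 (3 mice), described by the same protocol, are set beside them. There was 1 library per time point, so no difference below has a replicate check. The 95% intervals given with ratios and shares cover counting error only, and no test between conditions was possible.

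Macrophages reside in the uninjured heart, where they clear debris, support conduction and present antigen, and part of them renew without input from blood. After infarction, monocytes expressing Ly6C are drawn from blood into the wound through chemokine receptors such as CCR2. They release cytokines and proteases, take up dead cells and later become macrophages. CSF1R, the receptor that keeps these cells alive, F4/80 (Adgre1) and CD68 are markers of the lineage, carried by resident and recruited cells, though not always at the same level.

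The gate took 72.9% of the barcodes that passed the quality limits in steady state and 34.7% on day 1. On day 1, 282 of the others lacked the macrophage markers, 58 had them with a Csf3r UMI and 4 had them with lymphocyte markers. In steady state these were 65, 75 and 35, so the barcodes outside the gate were no like group in both libraries. C1qa, a macrophage gene, stood at 4861 CPM in those of steady state and at 112 CPM in those of day 1. The sums held 3566364 UMIs in steady state and 1735434 on day 1. A gated cell had 7242 UMIs and 1955 genes at the median in steady state, and 9416 UMIs and 2026 genes on day 1. At the edge of the rule, 11 cells in steady state and 43 on day 1 had exactly 2 marker UMIs, and 30 and 69 barcodes without Csf3r had 1 and stayed out. Levels are given as CPM, the UMIs of a gene per 1000000 UMIs of the sum. Of 14 macrophage markers compared, the 3 gate genes among them, 9 were at least 2-fold lower on day 1 and 2 higher, Cd14 and Itgam. Lyz2, the macrophage lysozyme, stood at 19867 CPM in steady state and 3719 CPM on day 1, Mertk, a receptor for dead cells, at 49.9 and 8.07 CPM, and C1qa, a subunit of complement C1q, at 5985 and 217 CPM. Cd14, the co-receptor for bacterial lipopolysaccharide, stood at 3340.1 and 7199 CPM (within 2-fold under a scaling by the median of ratios and after subtraction of neutrophil RNA) and Fcgr1, the high-affinity IgG receptor, at 133 and 161 CPM. Only 1 steady-state cell but 24 day 1 cells had entered through Cd68 alone. The 3 gate genes chose the cells, so their presence is no check of the label, and they and Lyz2 were among the 9 lower ones. Whether the rule took cells of both libraries equally readily was not tested. Of the markers outside the rule, Lyz2, Cd14 and Fcgr1 were present on both sides.

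Markers of other cell types moved between the libraries and are given as summed CPM. The neutrophil list of 18 genes went from 146 to 22957 CPM. Red cell genes went from 7168 to 120.4 CPM, fibroblast genes from 1262 to 134, endothelial genes from 589.7 to 44.4 and cardiomyocyte genes from 363 to 20.7. In steady-state cells with resident-type markers, defined below, the red cell sum was 406 CPM and the fibroblast sum 1038 CPM. On day 1 the defining genes Col1a1, Col1a2 and Pdgfra of fibroblasts and Vwf of endothelium were at 0. B cell genes summed to 36.5 and 4.61 CPM, and T cell genes to 32.0 and 1.73 CPM. NK cell genes summed to 283 and 178 CPM, with Klrb1c, Ncr1, Prf1 and Il2rb at 0 on day 1, and dendritic cell genes to 292 and 134 CPM, with Clec9a and Xcr1 at 0 on day 1. The part of these signals in the results was not tested, apart from the neutrophil values given further on. The libraries shared 1 barcode, which was a gated cell in neither.

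Of 4254 genes with a mean of at least 20 CPM over both sums, 620 were at least 2-fold higher on day 1 (14.6%) and 873 at least 2-fold lower (20.5%). The median log2 ratio of day 1 to steady state was -0.08, and no interval of a ratio past 2-fold reached 1. At these depths the filter of 20 CPM already sees to that, so it is no check of the calls. A change of at least 4-fold was seen upward in 227 genes (5.34%) and downward in 346 (8.13%). Genes at least 4-fold higher held 23.1% of all UMIs on day 1 and 2.27% in steady state. Genes at least 4-fold lower held 2.30% and 21.6%. All 82 compared ribosomal protein genes stayed within 2-fold (median log2 ratio -0.17). The counts of each gene list below stand beside these shares of 14.6% higher and 20.5% lower over all compared genes, and a count near them is no result about that list.

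**Figure D1:**
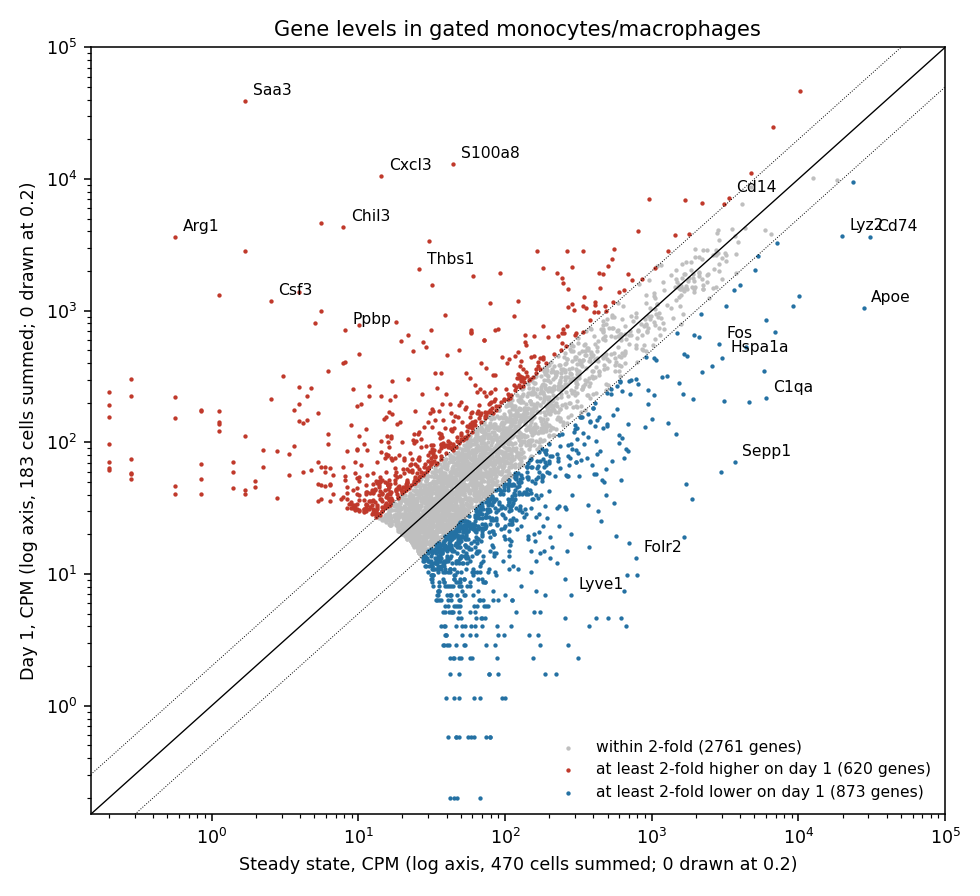
CPM of each of 4254 genes, summed over 470 gated cells in steady state (horizontal axis, log) and 183 on day 1 (vertical axis, log), with red for at least 2-fold higher, blue for at least 2-fold lower and grey for the rest. The solid line marks equal levels and the dotted lines 2-fold. Saa3 and Arg1 lie far above the line from near 0 in steady state, and Sepp1 and Folr2 far below it.

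The gated cells of steady state and day 1 differed in the marker genes they carried. After each cell was thinned to 2000 UMIs, 202 of 444 steady-state cells (45.5%, exact binomial interval 40.8 to 50.3%) had at least 2 UMIs of the resident-type markers Lyve1, Timd4, Folr2 and Cd163, against 11 of 181 on day 1 (6.08%, 3.07 to 10.6%). Monocyte-type markers (Ly6c2, Chil3 and Plac8, at least 2 UMIs) were found in 7 of 444 steady-state cells (1.58%) and in 129 of 181 day 1 cells (71.3%, 64.1 to 77.7%). Without thinning the resident-type shares were 74.5% and 10.9%, and the monocyte-type shares 2.34% and 88.5%. The monocyte-type share was 71.8% on day 3, 36.1% on day 5 and 20.6% on day 7, and the resident-type share 2.48%, 3.06% and 9.75%. Of the 20 unthinned resident-type cells on day 1, 12 also had the monocyte-type markers. Cells with a marker of dendritic cells made up 6.31% of thinned cells in steady state and 3.31% on day 1. In the sums that follow, fewer cells of a kind and less RNA per cell cannot be told apart, so shares of thinned cells are given beside the leading genes. For the 12 genes with the largest ratio the share of cells with a UMI ran from 9.94% (Ppbp) to 98.3% (Saa3) on day 1 and from 0 to 2.93% in steady state. For the 12 with the smallest ratio it ran from 6.31% (Dcn) to 95.9% (Sepp1) in steady state and from 0 to 13.8% on day 1.

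Saa3, an acute-phase serum amyloid made by macrophages and other cells under inflammation, had the largest ratio of all genes of at least 100 CPM on average (chr7:46711998-46715700). It had 6 UMIs in steady state (1.68 CPM) and 67598 on day 1 (38952 CPM), a ratio of 23153 with an interval of 10637 to 63091. On days 3, 5 and 7 the level was 5515, 1233 and 281 CPM. Day 1 was the highest of the 5 CD45+ libraries, and each later day was lower than the one before but above steady state. Saa3 was found in 98.3% of thinned day 1 cells and 0.225% of steady-state cells. Day 1 T cells, which should lack it, also had it in 13 of 13 thinned cells, but at 1941 CPM, and neutrophils of that library at 8750.1 CPM. The median UMI count of T cells was 3059 before thinning.

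The promoters of Saa3, Pgk1 and Hspa1a are shown, each beside its gene, since their genes are among the results described here and each holds letters of a site recognised by a factor known in inflammation, hypoxia or heat shock. The Saa3 promoter (RefSeq, GRCm38.p6, chr7:46715677-46715926, minus strand, 250 bases before the RefSeq start) is printed with matches to the C/EBP letters TTNNGNAA in capitals, searched on both strands. The RefSeq start lies inside the GENCODE gene position given above, so the printed bases overlap that position. There were 4 matches, the first bases of which lay 216, 191, 129 and 99 bases before the RefSeq start.
Saa3: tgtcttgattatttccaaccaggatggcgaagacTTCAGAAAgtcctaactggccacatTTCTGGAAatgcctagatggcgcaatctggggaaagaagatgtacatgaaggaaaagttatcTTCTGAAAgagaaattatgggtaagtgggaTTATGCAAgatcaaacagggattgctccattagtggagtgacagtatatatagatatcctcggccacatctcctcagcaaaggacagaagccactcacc
These letters were in 36.9% of all 27025 listed promoters of that length, in 30.3% of the 3282 compared genes with an entry in 8 of 13 infiltrating monocyte genes and in 8 of 18 resident macrophage genes. They were in 4 of 7 of the 12 leading higher genes with an entry and in 5 of 9 of the 12 leading lower genes, so that the letters were found on both sides. A match describes the letters and is no measurement of binding. Cebpb, a C/EBP factor, stood at 2810.2 and 4104 CPM.

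Among the other 11 leading higher genes were an enzyme of arginine metabolism and inhibitors of proteases. Arg1, the arginase that splits arginine into ornithine and urea (chr10:24915221-24927484), had 2 UMIs in steady state and 6297 on day 1, a ratio of 6470.2 with an interval of 1790.4 to 53439. It was found in 55.8% of thinned day 1 cells and in 4 of 13 thinned T cells. Slpi, an inhibitor of neutrophil elastase, stood at 5.61 CPM in steady state and 4602 CPM on day 1 (821-fold, 531 to 1344). Serpinb2, the plasminogen activator inhibitor of type 2, had 1 UMI in steady state and 394 on day 1 (809.7-fold, 144 to 32061), in 11.6% of thinned day 1 cells and with 50.5% of its day 1 UMIs in 5 cells. All of these had their highest level of the 5 CD45+ libraries on day 1.

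Chil3, a chitinase-like protein of Ly6C-high monocytes, was 552-fold higher (7.85 to 4336 CPM), and Hp, haptoglobin, which binds free haemoglobin, 356-fold higher (3.93 to 1399 CPM). Csf3, the growth factor G-CSF that drives neutrophil production, was 469-fold higher (247 to 1028) and stood at 2.52 CPM in steady state and 1185 CPM on day 1, in 43.6% of thinned day 1 cells and 3 of 13 T cells. It was then 26.4, 16.1 and 21.1 CPM on days 3, 5 and 7, so that day 1 stood apart from every other time. F10, coagulation factor X, was 103-fold higher, Arg2, the mitochondrial arginase, 84.3-fold, and Thbs1, thrombospondin 1, 79.0-fold (26.1 to 2059 CPM). Ppbp, a platelet chemokine precursor, was 88.5-fold higher, but 5 cells held 82.1% of its 1249 day 1 UMIs, and 1 cell held 630. The 20 resident-type day 1 cells held 766 of these UMIs.

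Day 1 hearts were also part of the hashed CD11b+ pool of the series (another sort and chemistry), in which 162 cells met the same rule. All 12 leading higher genes were at least 2-fold above the steady-state library there too. Levels differed: Saa3 was 2297 CPM in the pool against 38952 in the CD45+ library, Csf3 59.5 against 1185, and Arg1 4854 against 3628. Over all genes, 400 of 616 higher genes (64.9%) were at least 2-fold above steady state in the pool, against 18.9% of all genes. Of the lower genes 395 of 872 (45.3%) were at least 2-fold below, against 12.8% of all genes. The comparison shares the steady-state library and crosses chemistries, and is given as values only.

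**Figure D2:**
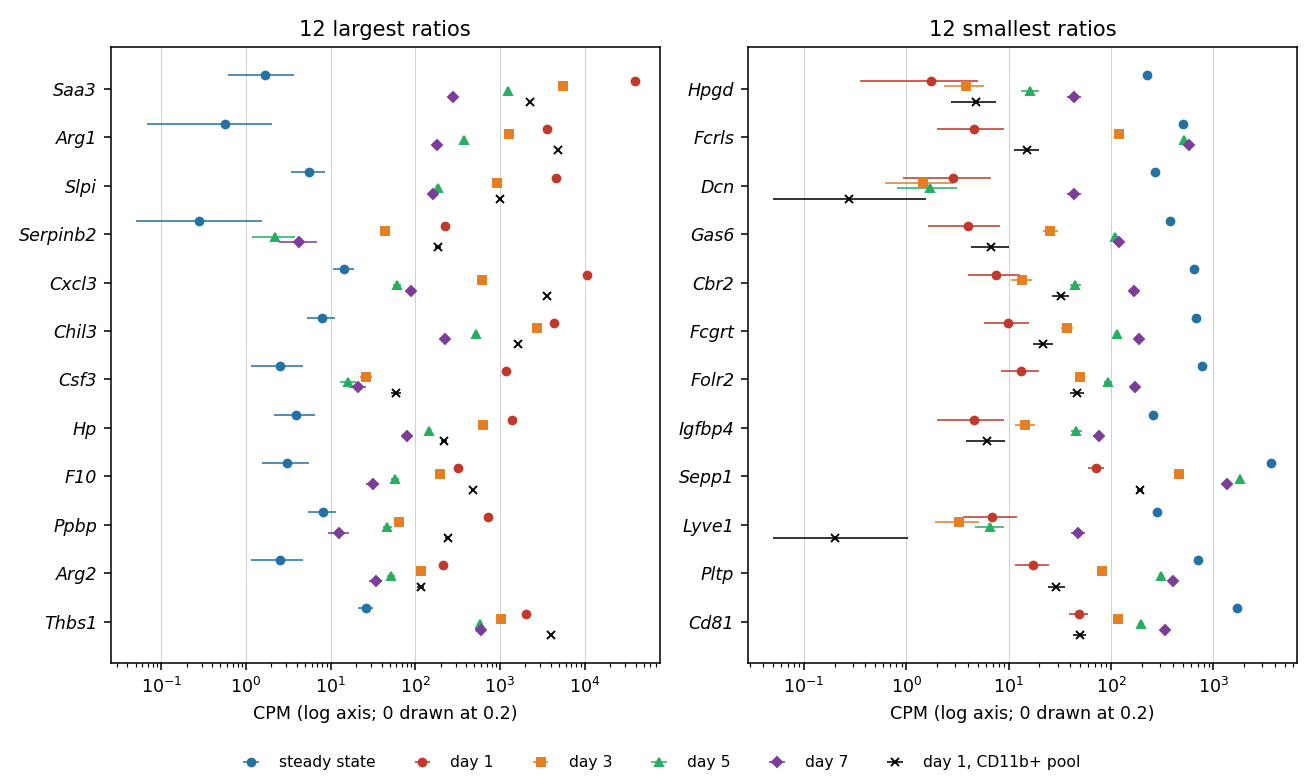
CPM (log axis) of the 12 genes with the largest and the 12 with the smallest ratio of day 1 to steady state, in gated cells of the 5 CD45+ libraries and of day 1 in the CD11b+ pool, with exact 95% Poisson intervals. Day 1 is the highest CD45+ library for 12 of 12 genes on the left and the lowest for 10 of 12 on the right.

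CXC chemokines, which draw neutrophils through CXCR2 or lymphocytes through CXCR3, were higher in 5 of 8 compared genes and lower in 1 (median log2 ratio 2.22). Cxcl3 (chr5:90786103-90789600) had 51 UMIs in steady state and 18380 on day 1, or 14.3 CPM in steady state and 10591 CPM on day 1 (741-fold, 563 to 995). It was 622 CPM on day 3 and 61.3 on day 5. Neutrophils of the day 1 library held 8498 CPM and T cells 2672. Cxcl2, a close relative, was already at 6679 CPM in steady state and at 24696 on day 1 (3.70-fold), and Cxcl1 at 495 and 868 CPM. Cxcl10, an interferon-induced ligand of CXCR3, was 5.85-fold higher, with 56.9% of its day 1 UMIs in 5 cells. Cxcl5, also among the higher genes, had 0 UMIs in steady state and 124 on day 1, 96.8% of them in 5 cells. Ppbp, another of the higher genes, was held mostly by few cells as given above. Cxcl16, a transmembrane chemokine that binds phosphatidylserine and oxidised lipid, was the lower one (599 and 99.1 CPM), and Pf4 did not move past 2-fold (2813 and 2724 CPM).

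CC chemokines, which mainly attract monocytes and lymphocytes, were higher in 7 of 12 genes and lower in 2 (median 1.09). Ccl2, the ligand of CCR2, stood at 1690.2 and 6911 CPM and Ccl7, another CCR2 ligand, at 1300.2 and 2836 CPM. Ccl7 and Ccl4, both among the 7 higher genes, fell within 2-fold under a scaling by the median of ratios (log2 ratios of 0.99 and 0.92, from 1.13 and 1.06). Ccl12 stood at 339 and 2856 CPM (8.43-fold, 7.92 to 8.99), and the 20 resident-type day 1 cells held 10114 CPM of it against 2669 in monocyte-type cells. Ccl17, a ligand of CCR4, was 77.9-fold higher, with 91.1% of its day 1 UMIs in 5 cells and 38.4% in cells with a dendritic cell marker. Ccl22, the other ligand of CCR4, was at 12.6 and 58.2 CPM with 96.0% of day 1 UMIs in 5 cells and 88.1% in dendritic-marker cells. With at least 4 gate UMIs its log2 ratio turned from 2.21 to -1.22. On the lower side, Ccl8 had 265 UMIs in steady state and 1 on day 1 (129-fold lower, 22.9 to 5112) and was 584 CPM on day 5. Ccl24, an eosinophil attractant made by resident macrophages, went from 535 to 72.0 CPM.

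Cytokines were higher in 6 of 12 genes and lower in 1 (median 1.49). Inhba, the activin A subunit, was 50.3-fold higher (30.6 to 89.0, 4.49 and 226 CPM), Il6 12.2-fold (58.3 and 712 CPM) and Il1rn, the antagonist of the interleukin-1 receptor, 9.70-fold (123 and 1195 CPM). For Il1rn the estimated neutrophil part, explained below, was 23.1% of the day 1 level. Il1a (85.5 and 711 CPM), Ptgs2, the inducible cyclooxygenase (90.0 and 726 CPM), and Osm (181 and 772 CPM) made up the other higher ones. Il1b was abundant on both sides (4720.5 and 8719 CPM), and Tnf (232 and 285 CPM) and Il10 (34.2 and 21.9 CPM) also stayed within 2-fold. Il18 was the lower gene, at 35.3 and 7.49 CPM. The log2 ratio of Tnf was 0.29.

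Of 17 compared genes of infiltrating monocytes 15 were higher, 0 were lower and the median log2 ratio was 4.18. Ly6c2, the Ly6C antigen, was 49.7-fold higher (8.13 and 405 CPM), Vcan, the matrix proteoglycan versican, 123-fold (47.3 to 454), and Plac8 18.1-fold (29.2 and 528 CPM). Ccr2 itself moved less (38.7 and 128 CPM). Plac8 was higher still on day 3 (1709.5 CPM), while Ly6c2 was 351 CPM then.

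Receptors for chemokines and adhesion molecules were higher in 7 of 16 genes and lower in 4, a lower count near the 20.5% of all compared genes. Ccr1 was 10.4-fold higher (48.5 and 504 CPM) and Itgam, the integrin chain CD11b, 8.41-fold (71.5 and 601 CPM). Vcam1, an adhesion molecule for integrin alpha 4, was 48.7-fold lower (22.2 to 133), and Cx3cr1, the fractalkine receptor, 3.22-fold lower. Selplg, the P-selectin ligand, was 3.52-fold lower, with an estimated neutrophil part of 31.7%.

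Pattern recognition receptors, which sense microbes and damaged cells, were higher in 9 of 17 genes and lower in 4 (median 1.11). Trem3 had 2 UMIs in steady state and 81 on day 1 (83.2-fold, 22.3 to 699). Trem1, an amplifier of myeloid activation, was 67.5-fold higher and Fpr1, the receptor for formyl peptides, 54.8-fold, with estimated neutrophil parts of 39.9% and 41.1%. Clec4e, the receptor Mincle, which binds a protein of dead cells, stood at 39.3 and 924 CPM. Mrc1, the mannose receptor (318 and 55.3 CPM), Clec4a3 (178 and 56.5 CPM) and Clec10a (80.8 and 25.9 CPM) were lower.

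**Figure D3:**
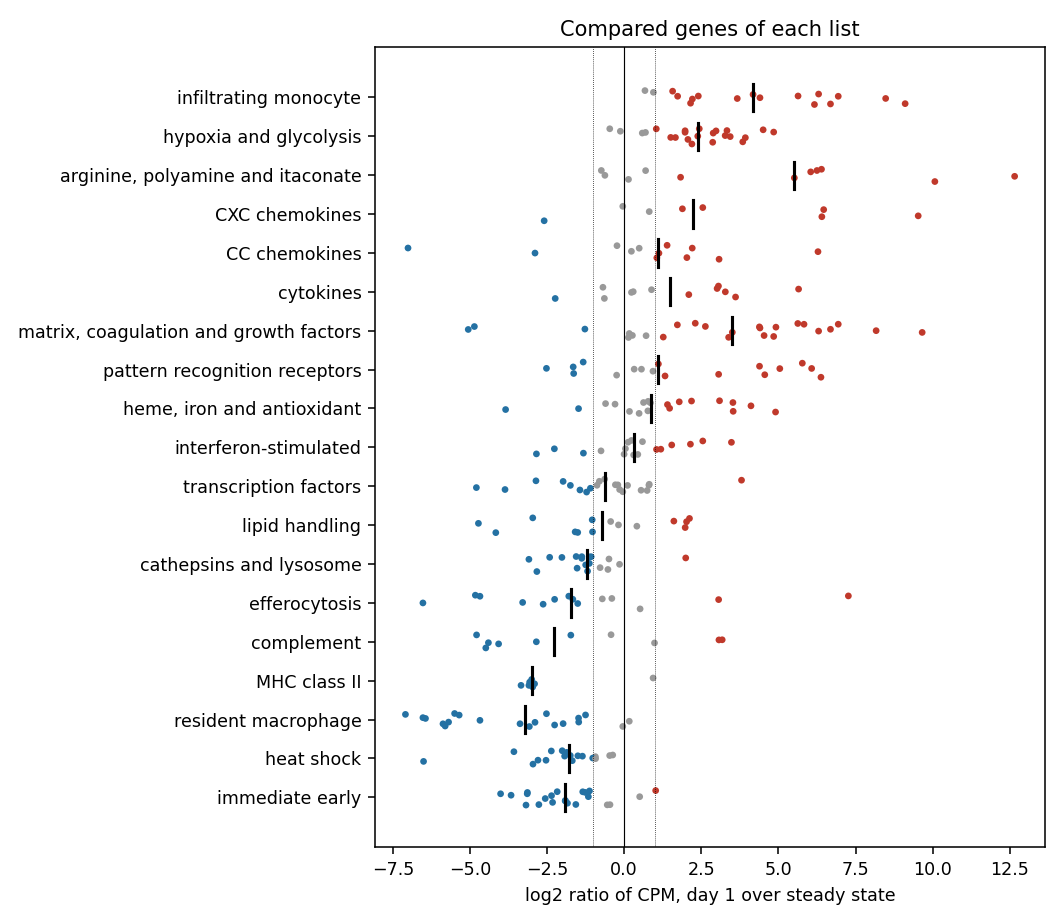
log2 ratio of CPM, day 1 over steady state, for each compared gene of 19 gene lists (1 point a gene, red at least 2-fold higher, blue at least 2-fold lower, grey within 2-fold; vertical bars are list medians, dotted lines 2-fold). Infiltrating monocyte genes have a median of 4.18 and resident macrophage genes of -3.23.

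Genes of glycolysis and the response to low oxygen were higher in 19 of 23 compared genes and lower in 0 (median log2 ratio 2.38). Together they went from 2809 to 15086 CPM and were 11478, 7258 and 5476 CPM on days 3, 5 and 7. Vegfa, the vessel growth factor, was 28.8-fold higher (14.1 to 68.3, 2.24 and 64.5 CPM) and Pgk1, phosphoglycerate kinase, 22.7-fold (16.5 to 31.9, 11.8 and 267 CPM). Ero1l, an oxidase of disulphide formation, was 15.2-fold higher. Enzymes of the same pathway with high levels were Gapdh (537 and 2458 CPM), Pkm (263 and 2851 CPM) and Ldha, which makes lactate (271 and 1463 CPM). Hk2 (83.0 and 76.1 CPM) and P4ha1 (82.2 and 59.4 CPM) were among the 4 within 2-fold. Barcodes of the same libraries outside the gate, which differ in make-up as given above, summed to 3175 CPM in steady state and 11474 on day 1. Hif1a, the oxygen-regulated transcription factor, was 14.0-fold higher (21.9 and 305 CPM), the only one of 21 compared transcription factors on the higher side.

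The core letters of a hypoxia response element, ACGTG on either strand, were in the promoter of 11 of 26 genes of this list, in 16.6% of all listed promoters and in 24.1% of those of compared genes. Of the 11, Bnip3, Ldha, Pgam1, Pgk1, Slc16a3 and Slc2a1 were among the higher genes. Ankrd37, Egln1, Egln3, Hk2 and P4ha1 were not. The Pgk1 promoter (RefSeq, GRCm38.p6, chrX:106186850-106187099, plus strand) holds 2 matches, in capitals, starting 150 and 131 bases before the start.
Pgk1: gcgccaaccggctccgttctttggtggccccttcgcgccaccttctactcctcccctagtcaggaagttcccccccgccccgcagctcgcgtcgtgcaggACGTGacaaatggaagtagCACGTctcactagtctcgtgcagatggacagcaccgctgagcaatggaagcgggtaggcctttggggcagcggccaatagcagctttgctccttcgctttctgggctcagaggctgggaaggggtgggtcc

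Genes of arginine, polyamine and itaconate metabolism were higher in 7 of 11 and lower in 0. Beside both arginases, Irg1, the enzyme that makes itaconate, had 1 UMI in steady state and 524 on day 1 (1077-fold, 192 to 42613), with an estimated neutrophil part of 30.7%. Nos2, the inducible nitric oxide synthase that competes with arginase for arginine, stood at 1.68 and 111 CPM. Arg1 was 1292, 376 and 180.0 CPM on days 3, 5 and 7, and Arg2 116, 51.5 and 34.5, so that both were lower on each later day than on the one before.

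Genes that handle heme, iron and oxidants were higher in 9 of 19 and lower in 2 (median 0.85). Gsr, glutathione reductase, was 30.0-fold higher (19.6 and 589 CPM), Sod2, mitochondrial superoxide dismutase, 17.3-fold (166 and 2862 CPM), and Prdx6, a peroxidase, 11.6-fold (58.9 and 682 CPM). Fth1, the ferritin heavy chain, reached 46416 CPM from 10226, while the light chain Ftl1 stood at 12517 and 10184 CPM. Blvrb, biliverdin reductase B, was 14.4-fold lower and Cd163, the receptor for haptoglobin bound to haemoglobin, 2.79-fold lower (201 and 72.0 CPM). Haptoglobin and its receptor thus lay on opposite sides. Hmox1, heme oxygenase 1, stayed within 2-fold (955 and 1723 CPM).

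Matrix, coagulation and growth factor genes were higher in 18 of 25 and lower in 3 (median 3.51). Beside Serpinb2, Vcan, F10 and Thbs1, Timp1, an inhibitor of matrix proteases, went from 6.17 to 351 CPM and Plaur, the urokinase receptor, from 92.0 to 1919. Spp1, osteopontin, stood at 60.8 and 1841 CPM, and Fn1, fibronectin, at 23.6 and 498 CPM. Mmp8, the neutrophil collagenase, had 0 UMIs in steady state and 420 on day 1, and is a gene of the neutrophil list. With steady state set at the floor of 3 counts it was 288-fold higher (the exact 95% interval of the ratio starts at 233). Igf1, insulin-like growth factor 1, was 33.3-fold lower (17.4 to 73.2, 173 and 5.19 CPM) and was 143 CPM on day 5. Timp2 was 29.0-fold lower, with an estimated neutrophil part of 36.6%, and Mmp12 2.42-fold lower, but within 2-fold under 3 of 12 alternative settings.

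Genes of resident macrophages were lower almost throughout. Of 20 compared genes 18 were lower, 0 were higher and the median log2 ratio was -3.23. Folr2, the folate receptor beta (chr7:101839988-101857194), had 2777 UMIs in steady state and 23 on day 1 (58.8-fold lower, 39.1 to 92.8), and 53.8% of thinned cells against 3.31%, with none of 13 thinned day 1 T cells. Lyve1, a hyaluronan receptor, was 40.8-fold lower (282 and 6.91 CPM), Cbr2, a carbonyl reductase, 87.1-fold (652 and 7.49 CPM) and Gas6, a bridge between dead cells and their receptors, 92.2-fold (372 and 4.03 CPM). Sepp1, selenoprotein P (chr15:3268547-3280508), stood at 3673 CPM in steady state and 70.9 CPM on day 1 (51.8-fold lower, 43.4 to 62.4), then at 464, 1798 and 1359 CPM. Ltc4s, leukotriene C4 synthase, was 137-fold lower (315 and 2.30 CPM, 53.2 to 502), with an estimated neutrophil part of 24.9%. That part is uncertain, since the day 1 level was near the floor of 3 counts (1.73 CPM). Resident-type cells of day 1 held 4 UMIs of it. The estimated part kept Ltc4s out of the leading lower genes. Pf4 and F13a1 (746 and 836 CPM) were the 2 of the list within 2-fold.

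Fcrls, an Fc receptor-like gene of tissue macrophages, was 109-fold lower (501 and 4.61 CPM, 55.1 to 252) and stood at 518 CPM by day 5, where Lyve1 was 6.63 CPM. Fcrls was thus back near its own steady-state level by day 5, and Lyve1 was still below its steady-state 282 CPM. Hpgd, which inactivates prostaglandins, had 3 UMIs on day 1 and 799 in steady state (129.6-fold lower, 44.2 to 629.8). Igfbp4 was 56.0-fold, Fcgrt, the neonatal Fc receptor that recycles IgG, 69.2-fold, Pltp, a phospholipid transfer protein, 40.8-fold and Cd81, a tetraspanin, 35.3-fold lower. Dcn, decorin, is a fibroblast gene and was 93.3-fold lower (269 and 2.88 CPM), with 91.2% of its steady-state UMIs in 5 cells. All 12 genes of this group were at least 2-fold below steady state in day 1 cells of the CD11b+ pool, and 10 of 12 had their lowest CD45+ level on day 1, Lyve1 and Dcn having it on later days.

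Resident-type cells, 350 in steady state and 20 on day 1, were also compared as levels only, because the day 1 cells are few. Of the 16 compared genes of the list that did not choose these cells, 9 were at least 2-fold lower in those of day 1, 6 were within 2-fold and 1 was higher. Sepp1 stood at 4029.7 CPM in resident-type cells of steady state and 414 of day 1, and Cbr2 at 756 and 39.7. The higher gene was Pf4, platelet factor 4, at 3159 and 13009 CPM, and with it the sum of the whole list was higher in resident-type cells of day 1, at 16249.8 against 13607 CPM. Ppbp, the platelet chemokine precursor held mostly by few cells on day 1, stood at 9.58 and 4348 CPM in the same cells. Of the markers that chose the cells, Cd163 was higher (248 and 658 CPM) and Folr2 lower (968 and 125). Outside the list, Apoe stood at 29174 and 3315 CPM and C1qa at 6371 and 1334. Saa3 was 1.77 and 40803 CPM in the same cells, and 40109.6 in monocyte-type cells of day 1. The Saa3 level of day 1 was alike in both kinds of cell, which share 12 cells. Hp, which chose neither kind, stood at 454 CPM in resident-type and 1494 CPM in monocyte-type cells of day 1. Chil3 stood at 1368 and 4684 CPM, but it helped choose the monocyte-type cells, so its side was fixed in advance.

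Genes of antigen presentation on MHC class II were lower in 6 of 7 compared genes (median -3.0), and their sum went from 58351 to 6941 CPM. Cd74, the invariant chain, stood at 30551 CPM in steady state and 3646 CPM on day 1 (8.38-fold lower, 8.17 to 8.59), H2-Aa at 9248 and 1086 CPM and H2-Eb1 at 6955 and 684 CPM. Cells with a dendritic cell marker were 94 of 470 in steady state and 13 of 183 on day 1 without thinning. They held 27.5% of the Cd74 UMIs and 28.5% of the H2-Aa UMIs in steady state, and 53.0% and 52.2% on day 1. The sum of the dendritic cell list was lower on day 1 too, as given above. Of its 4 compared genes 2 were lower, Cd209a 7.15-fold and Fscn1 27.9-fold. For Fscn1, 5 cells held 69.8% of the steady-state UMIs. Ifi205 was 2.13-fold higher (1.56 to 2.89, 24.1 and 51.3 CPM), and 1 gene was within 2-fold. Without the dendritic-marker cells of both libraries the log2 ratio of Cd74 was -4.00, against -3.07 with them. The class II sum was 10974, 17825 and 26194 CPM on the later days.

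Complement genes were lower in 6 of 10 and higher in 2. The chains of C1q, which tags debris for uptake, moved together, with C1qa 27.6-fold lower (24.9 to 30.7), C1qb 16.8-fold and C1qc 22.4-fold. C4b was 21.2-fold lower, and C3, the central component, was 9.04-fold higher (9.81 and 88.7 CPM). Of 14 genes for the uptake of dead cells 9 were lower and 2 higher. Axl (98.1 and 3.46 CPM), Mertk (49.9 and 8.07 CPM) and Timd4 (73.7 and 2.88 CPM), receptors for phosphatidylserine or its bridge Gas6, were lower, whereas Msr1, a scavenger receptor, was 8.35-fold higher (72.3 and 604 CPM) and Cd300lf 154-fold (estimated neutrophil part 23.4%).

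Lysosomal genes were lower in 13 of 18 and higher in 1 (median -1.22). Hexa, a hexosaminidase subunit, was 8.52-fold lower, Cst3, the cathepsin inhibitor cystatin C, 7.13-fold (6052 and 849 CPM) and Lyz2 5.34-fold. Ctsl, cathepsin L, was the higher one (269.7 and 1075 CPM), and Ctsb, cathepsin B, was lower (3187 and 1082 CPM). On day 3 Lyz2 was 17326 CPM and Ctsb 4588, close to or above the steady state. Of 14 lipid genes 7 were lower and 4 higher. Apoe, the lipoprotein that carries cholesterol out of macrophages, was 26.5-fold lower (25.3 to 27.8, 27784 and 1049 CPM), Fabp4 17.9-fold and Trem2, a lipid receptor of macrophages, 7.81-fold. Lgals3, galectin 3 (505 and 2189 CPM), Cd9 (158 and 641 CPM, estimated neutrophil part 31.0%) and Plin2, the coat protein of lipid droplets (285 and 1121 CPM), were higher. Fabp4 is also an endothelial marker, a list whose sum was lower on day 1 as given above, and 5 cells held 70.2% of its steady-state UMIs.

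Of 21 transcription factors 8 were lower. Mef2c was 27.7-fold lower (17.0 to 48.7), Irf1, a factor of the interferon response, 14.6-fold (151 and 10.4 CPM, estimated neutrophil part 24.9%) and Tcf4 7.27-fold. Spi1, the lineage factor PU.1, stayed within 2-fold (376 and 308 CPM). Of 17 interferon-stimulated genes 6 were higher, against 14.6% of all compared genes, and 3 lower, near the 20.5% of all (median 0.31). Ifit1 was 11.1-fold and Rsad2 4.43-fold higher, but 5 cells held 86.2% and 81.2% of their day 1 UMIs. Resident-type day 1 cells had 704 CPM of Rsad2 and monocyte-type cells 27.4. Bst2, tetherin (363 and 75.5 CPM), and Ly6a (58.0 and 8.07 CPM) were among the lower ones. Of 7 compared cell cycle genes 0 were higher and 2 lower, Cenpa (51.6 and 15.0 CPM) and Stmn1 (117 and 58.2 CPM, within 2-fold under 3 of 12 alternative settings). Oxidative phosphorylation genes of the nucleus were mostly within 2-fold (69 of 78), with 5 higher and 4 lower, and 4 of 12 mitochondrially encoded genes were lower.

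Genes of the neutrophil list are reported apart, because RNA of neutrophils is present outside neutrophils in droplet libraries. S100a8, a calprotectin chain, stood at 44.0 CPM in steady state and 12937 CPM on day 1, against 85302 in the 64 day 1 neutrophils (Csf3r present, Csf1r and Adgre1 absent) and 6303 in the 14 T cells. Of the 14 T cells, 1 held 77.5% of their S100a8 UMIs. The median level of 16 neutrophil genes in gated cells was 7.62% of that in neutrophils, with a range of 1.74 to 56.8%, and 2.32% in T cells (0 to 22.4%). Stfa2l1 was at the lower end (13.3 CPM in gated cells, 761 in neutrophils), and Ltf, lactoferrin (59.9 and 105), Mmp8 (242 and 802), Lcn2, an iron-binding lipocalin (2838 and 10087), and Wfdc21 (1309 and 5113) at the upper. The levels in gated cells thus stood at no common fraction of those in neutrophils. For Ltf, the top of the range, the neutrophil level rests on 28 UMIs.

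Gated cells were not alike in this RNA. The neutrophil list took a median of 0.829% of a gated day 1 cell's UMIs, 13.9% of a neutrophil's and 0% of a steady-state cell's. In 13 gated day 1 cells it reached 7.69%, the lower quartile of neutrophils. These 13 cells held 89.4% of the gated UMIs of Ltf, 84.3% of Ngp, 69.1% of S100a9, 56.6% of Retnlg and 46.1% of S100a8. They held 21.9% of Mmp8 and 21.5% of Lcn2. Lcn2 was in 76.2% of thinned day 1 cells and 5 of 13 thinned T cells, where 1 cell held 86.9% of the UMIs. With the 7.62% part of the neutrophil level taken off, nothing was left of the day 1 level of 9 of 17 neutrophil genes, among them S100a9, G0s2, Pglyrp1 and Retnlg. Camp was left at 1.17 CPM, under the floor of 3 counts (1.73 CPM). No side could be read for these 10 genes, while 7 stayed above the floor, among them S100a8, Lcn2 and Ngp. Since 7.62% is the median over 16 genes of this same list, about equal numbers below and above it were set by the rule. This split is therefore no result about the genes. By the same estimate neutrophil RNA made over 20% of the day 1 level of 165 compared genes, 50 of them higher and 59 lower, and the values named with an estimated neutrophil part belong to these. For Saa3 the estimated part was 1.71%, for Arg1 1.71% and for Cxcl3 6.11%. The estimate puts 1 fraction on every gene, although the neutrophil genes stood at no common fraction. It is thus no check that these 3 genes were free of RNA from other cells.

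**Figure D4:**
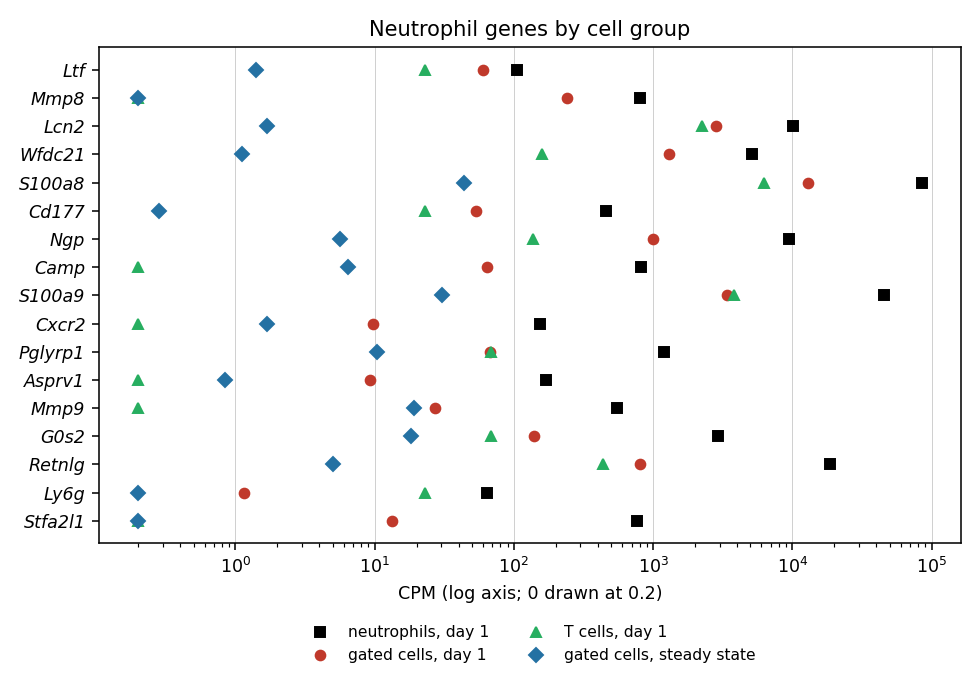
CPM (log axis) of 17 neutrophil genes in day 1 neutrophils (64 cells), gated day 1 cells (183), day 1 T cells (14) and gated steady-state cells (470). Gated day 1 cells lie between 1.74 and 56.8% of the neutrophil level in the 16 genes used, at no common fraction.

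Heat shock and immediate early genes, which respond within minutes to warmth and handling of live tissue, are also reported apart. Heat shock genes were lower in 14 of 18 and higher in 0 (median -1.81), and their sum went from 17579 to 6128 CPM. It was 7807, 5869.6 and 5187 CPM on days 3, 5 and 7, so that the steady-state library was the high one of 5. Barcodes outside the gate went from 17997 to 4482 CPM. They differ in make-up between the libraries as given above, and those of steady state include many with macrophage markers, so they are no separate check. T cells, 6 in steady state and 14 on day 1, stood at 17281 and 4841 CPM. These are few cells, and those of steady state held 1107 CPM of C1qa, so they are no separate check either. Hspa1a, the inducible HSP70 (chr17:34969190-34972156), stood at 3031 CPM in steady state and 436 CPM on day 1 (6.95-fold lower, 6.45 to 7.49), its near copy Hspa1b at 488 and 62.8 CPM, and Hspb1, a small heat shock protein, at 419 and 4.61 CPM. Reads of the near copies cannot be told apart with certainty. Hspa5, a chaperone of the endoplasmic reticulum with another inducer, stayed within 2-fold (1364 and 1053 CPM).

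A pair of heat shock element half-sites, GAANNTTC (its own reverse complement), was in the promoter of 5 of 15 heat shock genes, 6.78% of all listed promoters and 5.03% of those of compared genes. The Hspa1a promoter (RefSeq, GRCm38.p6, chr17:34972157-34972406, minus strand) holds 1 match, in capitals, starting 104 bases before the start, and 247 of its 250 bases are the same in Hspa1b.
Hspa1a: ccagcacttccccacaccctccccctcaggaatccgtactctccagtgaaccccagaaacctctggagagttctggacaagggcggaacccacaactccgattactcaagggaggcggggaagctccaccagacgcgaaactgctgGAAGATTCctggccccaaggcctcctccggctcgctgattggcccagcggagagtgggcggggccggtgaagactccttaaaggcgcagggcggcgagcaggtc

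Immediate early genes were lower in 18 of 22 and higher in 1 (median -1.91), from 26618 to 10031 CPM in sum. Outside the gate, with the same limit, the sums were 22986 and 9914 CPM. In T cells, with the limits given above, they were 15388.5 and 6417 CPM. Fosb was 16.1-fold lower (557 and 34.6 CPM), Atf3 12.7-fold (1473 and 116 CPM), Jun 9.09-fold (1284 and 141 CPM) and Fos 5.12-fold (2869.6 and 560.1 CPM). Ier3 was the higher gene (861 and 1745 CPM, log2 ratio 1.02, within 2-fold under 6 of 12 alternative settings), and Nfkbia, the inhibitor of NF-kB, stayed within 2-fold (1597 and 2261 CPM). With 1 steady-state library, its handling and the absence of an infarct cannot be told apart for these genes.

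**Figure D5:**
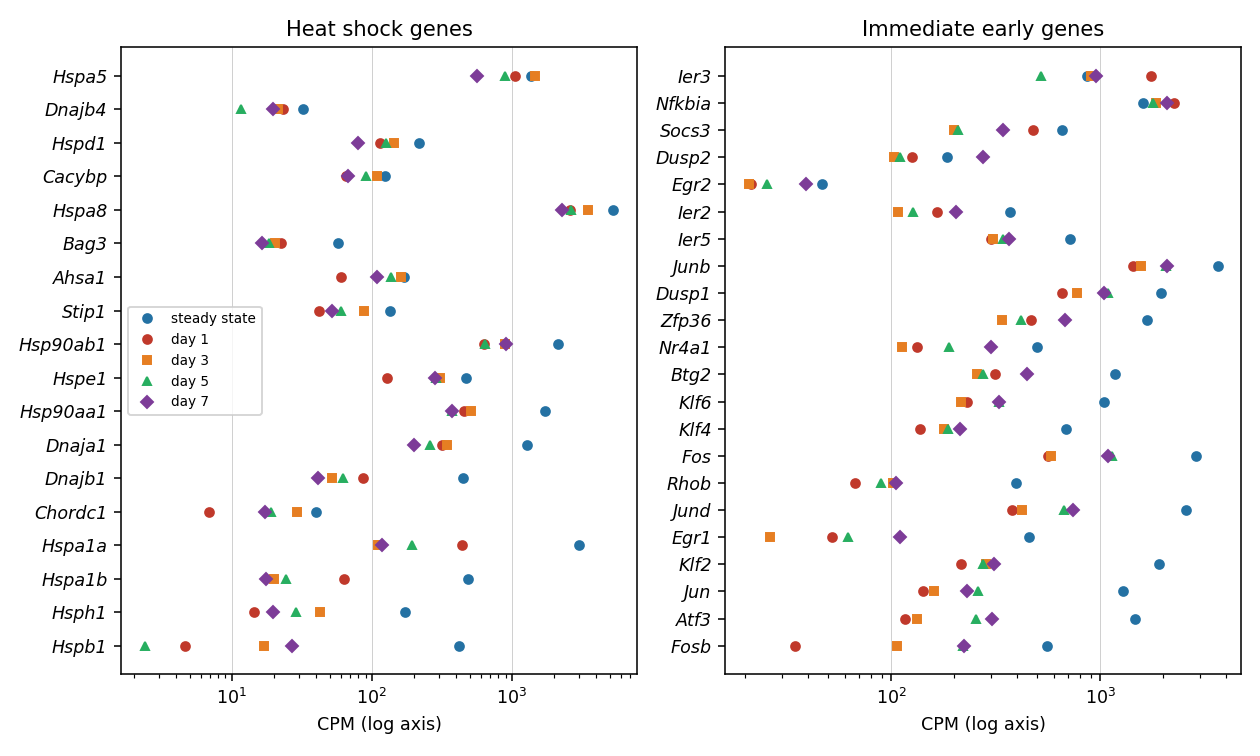
CPM (log axis) of 18 heat shock and 22 immediate early genes in gated cells of the 5 CD45+ libraries, ordered by the ratio of day 1 to steady state. Steady state is the rightmost point for most genes, with day 1 near days 3, 5 and 7.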

How the data were processed

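Single-cell RNA was measured in CD45+ heart leukocytes of steady state and day 1 (5 mice pooled each), with the CD45+ libraries of days 3, 5 and 7 and the hashed CD11b+ pool beside them. The values are UMI counts per gene and barcode as the authors deposited them, made with Cell Ranger per the submitters' processing notes (version 3.0.2 for the CD11b+ pool, per the file headers) on the mm10 build. The annotation release and the cell caller are not given in the sources used here. Of 27998 genes annotated, those with a mean of at least 20 CPM over both sums were compared.

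UMIs were summed over the gated cells of a library and divided by their total. Ratios carry exact 95% conditional binomial intervals, shares Clopper-Pearson and levels exact Poisson intervals. A gene was called at 2-fold. A side with 0 UMIs was set to a floor of 3 counts. With 1 library a side there is no p-value or replicate spread. Shares used cells thinned to 2000 UMIs (26 and 2 shallower cells left out). The gate's exclusion of Csf3r, Cd79a and Cd3 UMIs was the only step against doublets, and no doublet caller was run. Day 1 cells of the pool had hashtag 1 with at least 10 UMIs and 3 times the next. The neutrophil part of a gene is 7.62% of its level in day 1 neutrophils as a share of its level in gated cells.

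Named were the 12 largest and 12 smallest ratios among genes of at least 100 CPM on average (leaving out gate, mitochondrial, ribosomal, globin and unnamed model genes, the lists reported apart and genes with a neutrophil part over 20%), up to 3 genes past 2-fold on each side of every list, and all heat shock, immediate early and neutrophil genes. Other list members named in the text were chosen after their values were seen. The cells, lists and rules were chosen with earlier results of these data known. Gene positions are from GENCODE M21 (GRCm38), promoters from RefSeq, in which NF-kB and AP-1 motifs were also searched and are not reported here. Alternatives covered scaling, filters, thinning, the gate's limits and neutrophil RNA, and leaving out cells rich in neutrophil RNA was added after seeing the data. Scripts ran in Python 3.11.15 with numpy 2.4.6, scipy 1.17.1, pandas 2.3.3 and matplotlib 3.10.9, and were tested on simulated counts. Some list members are not reported here.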

Additional observations from a re-analysis of the deposited data

How the results depend on the processing

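The count of genes at least 2-fold apart (620 higher, 873 lower) depended on the filter for low levels. It was 981 and 2163 with a mean of at least 5 CPM, 236 and 211 with at least 100 CPM, 3493 and 3458 without a filter, and 227 and 346 at 4-fold. Under the other 12 settings 501 to 717 genes were higher and 853 to 1132 lower. Scaling by the median of ratios shifted every log2 ratio by -0.14. The resident-type share in steady state (45.5%) was 74.5% without thinning and 67.6% with 1 marker UMI as the limit, and on day 1 (6.08%) 10.9% without thinning. The monocyte-type share in steady state (1.58%) was 4.28% with 1 UMI and 0.571% without dendritic-marker cells, and on day 1 (71.3%) 88.5% without thinning and 84.5% with 1 UMI. In each of these settings the resident-type share stayed lower and the monocyte-type share higher on day 1.

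Of 253 named or listed genes past 2-fold, each setting left at least 242 past 2-fold on the same side. Ccl22 changed side with at least 4 gate UMIs (-1.22). Subtraction of neutrophil RNA left nothing of Pglyrp1 and Retnlg on day 1 and less than 3 counts of Camp, so that their log2 ratios (-1.69, -1.0 and -2.47) are no measured change of side, and S100a9, G0s2 and Stfa2l1 had no value. Ier3, Pfkl, Lpl, Ccl4, Isg15 and Hspa8 lie near 2-fold and fell inside it in 4 or more settings each; Ccl7 did so under the median of ratios, and Cd14 there and after subtraction of neutrophil RNA. No paired analysis was possible because each time point had 1 library. Replicates could not be left out for the same reason. Genes under 20 CPM, cells under 2000 UMIs in shares and the 20 resident-type cells of day 1 are where depth limits what can be compared.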
